A study of Homo sapiens with 15 samples.

Results

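The STAT transcription factor genes were taken by symbol as STAT2, STAT3, STAT4, STAT5A, STAT5B and STAT6, which are 6 of the 58735 genes in the count table. They were followed in UKE1 cells, a human haematopoietic line established from a leukaemia that had followed a myeloproliferative neoplasm, labelled WT. The label WT was not checked against the sequence of any gene, JAK2 included, and is not taken to mean that JAK2 is unmutated. RNA was sequenced in 15 libraries, 3 from each of 5 groups. The groups were TNF-α stimulated cells then given MCL and ruxolitinib together, TNF-α stimulated cells given MCL, TNF-α stimulated cells given ruxolitinib, cells with TNF-α alone, and untreated cells, all collected 3 h after treatment. MCL is taken as micheliolide, the plant lactone named in the series title. Ruxolitinib inhibits JAK kinases. The series asks about the activation of STAT3 and STAT5 proteins; the libraries measure transcript amounts and not protein or phosphorylation. All groups share 1 cell line, so they share its mutations and its genetic background, and the sources used here do not give the doses or the length of the TNF-α stimulation.

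STAT proteins wait in the cytoplasm until a cytokine binds its receptor. JAK kinases on the receptor then phosphorylate the STATs, which pair through their SH2 domains, enter the nucleus and bind promoters of target genes. STAT5A and STAT5B act downstream of the erythropoietin, thrombopoietin and interleukin-3 receptors and are chronically active in myeloproliferative neoplasms. STAT3 serves the interleukin-6 family, STAT2 joins IRF9 in the type I interferon complex ISGF3, STAT6 serves interleukin-4 and interleukin-13, and STAT4 serves interleukin-12 in T and NK cells. Suppressors such as CISH and the SOCS proteins, which STATs themselves induce, feed back on the receptors.

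Library totals ran from 15476399 to 18035604 counts over 22819 to 24407 genes with a count. All 9 haematopoietic markers were detected, with MPO close to 0, while the T and NK cell marker KLRD1, the B cell marker MS4A1 and the epithelial markers EPCAM and CDH1 were at 0 in every library. The summed level of the haematopoietic markers was 1910 to 1970 CPM (counts divided by TMM-adjusted library size) with both drugs, 2570 to 2590 CPM with MCL, 3060 to 3070 CPM with ruxolitinib, 3150 to 3200 CPM with TNF-α and 3180 to 3200 CPM in untreated cells. T and NK markers summed to 28.8 to 47.9 CPM and B cell markers to 23.1 to 35.6 CPM over all libraries, with the lowest values of both in cells given both drugs. Epithelial markers, which here means KRT8 and KRT18, summed to 101 to 108 CPM with both drugs and to 125 to 135 CPM with TNF-α, and fibroblast markers stayed at or under 1.8 CPM. Mitochondrial transcripts took 4.21 to 4.46% of counts with both drugs and 4.35 to 4.78% with MCL, against 4.94 to 5.21% with TNF-α. The part of these shifts in the STAT results was not tested. Fewer cells of a kind and less RNA per cell cannot be told apart in these bulk libraries.

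The members on chromosome 17 are close neighbours. On hg38, STAT5B (ENSG00000173757, minus strand, chr17:42199168-42276707) lies 10839 bases from STAT5A (ENSG00000126561, plus strand, chr17:42287547-42311943), with which it is arranged head to head. STAT3 (ENSG00000168610, minus strand, chr17:42313324-42388568) lies 1380 bases beyond STAT5A. STAT2 (ENSG00000170581, minus strand, chr12:56341597-56360155) and STAT6 (ENSG00000166888, minus strand, chr12:57095408-57132139) are 735252 bases apart. STAT4 (ENSG00000138378, minus strand, chr2:191029576-191151596) stands alone on chromosome 2. These coordinates matched GENCODE 29 for 6 of 6 members, and the lengths used for scaling are the union of annotated exons.

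The sequence upstream of the first RefSeq transcript start in the window table is shown for STAT5A and STAT2, which changed most with TNF-α, and for STAT3, which passed no drug comparison with TNF-α alone. The bases are from RefSeq on GRCh38.p14, read 5′ to 3′ on the gene's own strand, and bases in the gene's GENCODE 29 exons were left out. The stretches are chr17:42287189-42287438 on the plus strand for STAT5A (250 bases), chr12:56360156-56360357 on the minus strand for STAT2 (202 bases) and chr17:42388569-42388692 on the minus strand for STAT3 (124 bases). Capitals mark matches on either strand to a loose form of the NF-kB site, GGG and CC with any 5 bases between them. Where matches overlap, the capitals run on.
STAT5A: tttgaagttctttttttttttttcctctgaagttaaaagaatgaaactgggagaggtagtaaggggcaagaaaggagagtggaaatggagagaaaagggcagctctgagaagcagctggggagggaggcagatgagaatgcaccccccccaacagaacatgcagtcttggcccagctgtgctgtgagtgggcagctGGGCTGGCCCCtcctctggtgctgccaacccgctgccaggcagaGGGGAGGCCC
STAT2: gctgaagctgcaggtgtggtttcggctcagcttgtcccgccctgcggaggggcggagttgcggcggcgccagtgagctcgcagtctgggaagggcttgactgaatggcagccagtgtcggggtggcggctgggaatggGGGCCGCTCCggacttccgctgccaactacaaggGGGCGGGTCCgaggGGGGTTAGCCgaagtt
STAT3: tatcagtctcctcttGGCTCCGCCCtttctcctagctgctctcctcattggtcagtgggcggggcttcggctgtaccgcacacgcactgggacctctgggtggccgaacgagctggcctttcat
All 3 stretches hold the NF-kB-like pattern. Those of STAT2 and STAT3 are shorter than 250 bases, so shares over full windows do not apply to them as printed. Of 35116 RefSeq windows of 250 bases 54.4% hold the pattern, as do the full windows from which the 3 stretches come. The windows of STAT5B and STAT6, which are largely exonic and are not printed, hold it too, and of 2 STAT4 windows 1 does. The STAT site TTCNNNGAA (6.57% of windows), the interferon-type pattern of GAAA, any 2 bases and GAAA (3.02%) and the antioxidant-type pattern TGACNNNGC (10.9%) were searched on both strands and matched in none of the members' windows. These are letter matches in short windows, and no match says only that the letters are not there.

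STAT5A was the most abundant STAT transcript of UKE1 cells and STAT4 was nearly absent. Per length, the mean over the 15 libraries was 65.7 RPKM (CPM divided by the exon length in kilobases) for STAT5A, 29.5 RPKM for STAT3, 25.7 RPKM for STAT6, 15.6 RPKM for STAT5B and 10.6 RPKM for STAT2. These levels lay at the 95.6, 88.2, 85.9, 76 and 65.3 percentiles of 12455 tested protein-coding genes, whose median was 6.14 RPKM. STAT4, the interleukin-12 factor, had 18 counts over all 15 libraries, 0 to 3 in each, and a mean of 0.0148 RPKM. Its counts came to 6 with both drugs, 2 with MCL, 3 with ruxolitinib, 1 with TNF-α and 6 in untreated cells. In the 6 libraries with none, a count of 0 allows up to 3 counts, or 0.164 to 0.197 CPM, for counting error alone. STAT4 did not pass the filter on low counts, so 5 of the 6 members were tested, and without the filter its adjusted p ranged from 0.394 for both drugs against TNF-α to 1 (edgeR).

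**Figure D1:**
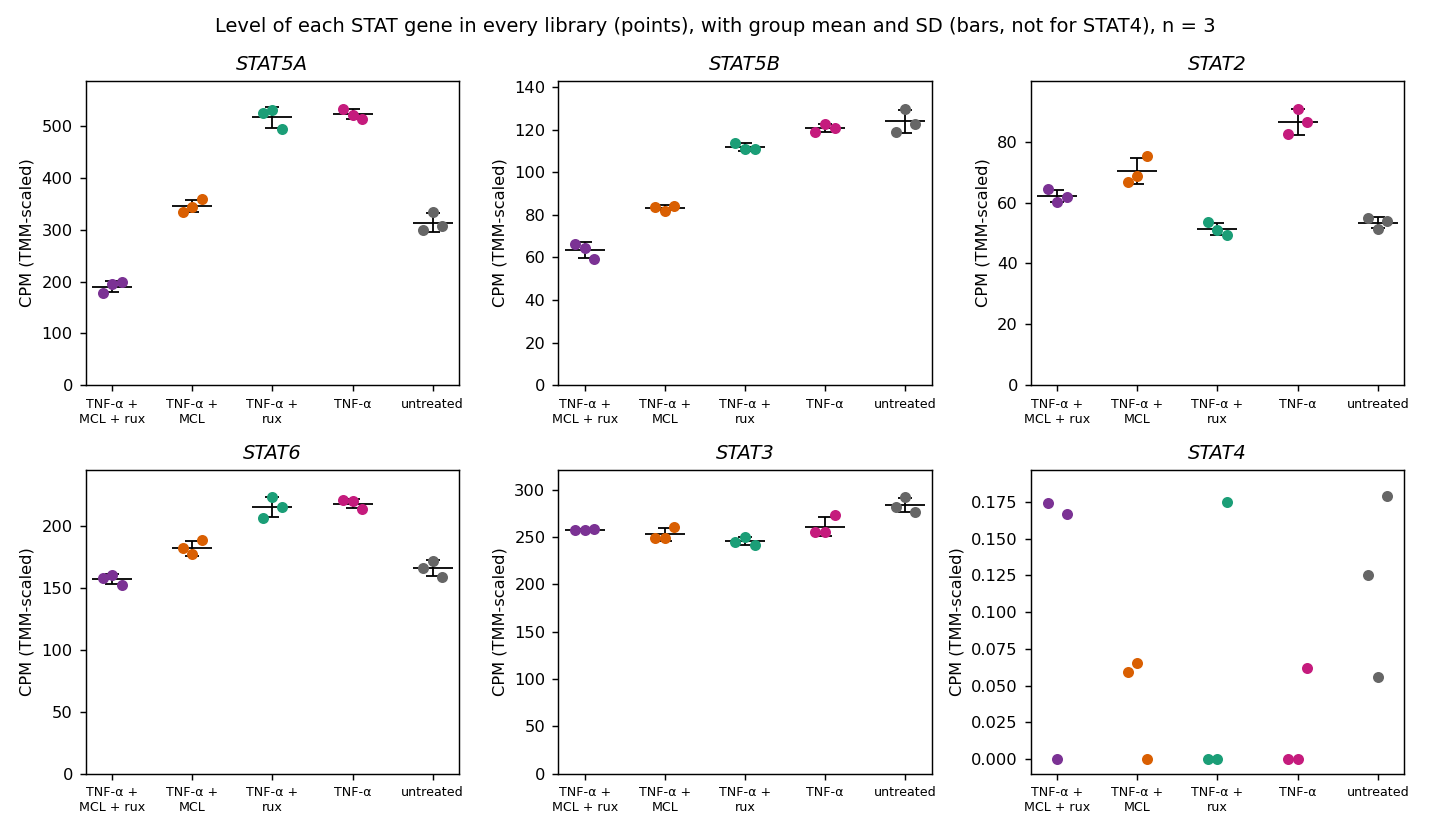
Level of each STAT gene in CPM (vertical axes, each from its own scale) in every library (points) of the 5 groups (horizontal axes), with the mean and SD of 3 libraries as bars for all genes but STAT4. STAT5A spans 178 CPM with both drugs to 534 CPM with TNF-α, STAT3 stays between 242 and 292 CPM, and STAT4 stays under 0.18 CPM.

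TNF-α raised 3 STAT transcripts, those of STAT5A, STAT2 and STAT6, and lowered STAT3 slightly. Of the 5 tested members 4 passed an adjusted p of 0.05 (edgeR's quasi-likelihood test with Benjamini-Hochberg adjustment over 16146 genes), in a comparison in which 26.6% of all tested genes passed. Higher calls made up 14.1% of tested genes and lower calls 12.5%, or 2275 and 2017 genes, and with library totals in place of TMM factors the split was 1983 higher and 2690 lower. The members' median log2 change was 0.40, against 0.005 over all tested genes.

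In the 3 TNF-α libraries STAT5A stood at 534, 521 and 515 CPM, against 300, 335 and 307 CPM in untreated ones. All TNF-α libraries lay above all untreated ones. The log2 fold change was 0.74 ± 0.04 (SE, adjusted p = 8.31e-21), a 1.67-fold level. STAT2, the interferon factor, stood at 82.5, 90.9 and 86.4 CPM with TNF-α, against 54.9, 51.3 and 54.1 CPM in untreated cells, without overlap, and rose by 0.70 ± 0.05 (adjusted p = 1.36e-17). STAT6, the interleukin-4 factor, stood at 221, 220 and 214 CPM with TNF-α, against 166, 172 and 159 CPM in untreated cells. Its groups did not overlap either, and the log2 change was smaller, 0.40 ± 0.04 (adjusted p = 1.67e-13).

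STAT3, the interleukin-6 factor, went the other way. Its 3 TNF-α libraries held 255, 255 and 273 CPM, against 282, 292 and 277 CPM in untreated cells, a log2 fold change of -0.12 ± 0.03 (adjusted p = 0.00657), or 0.921-fold. The groups did not overlap, although their nearest libraries stood at 273 and 277 CPM. STAT5B, the close relative of STAT5A, held 119, 123 and 121 CPM with TNF-α and 119, 130 and 123 CPM in untreated cells. These overlap, and the log2 difference was -0.04 with a 95% interval of -0.12 to 0.05 (adjusted p = 0.577).

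**Figure D2:**
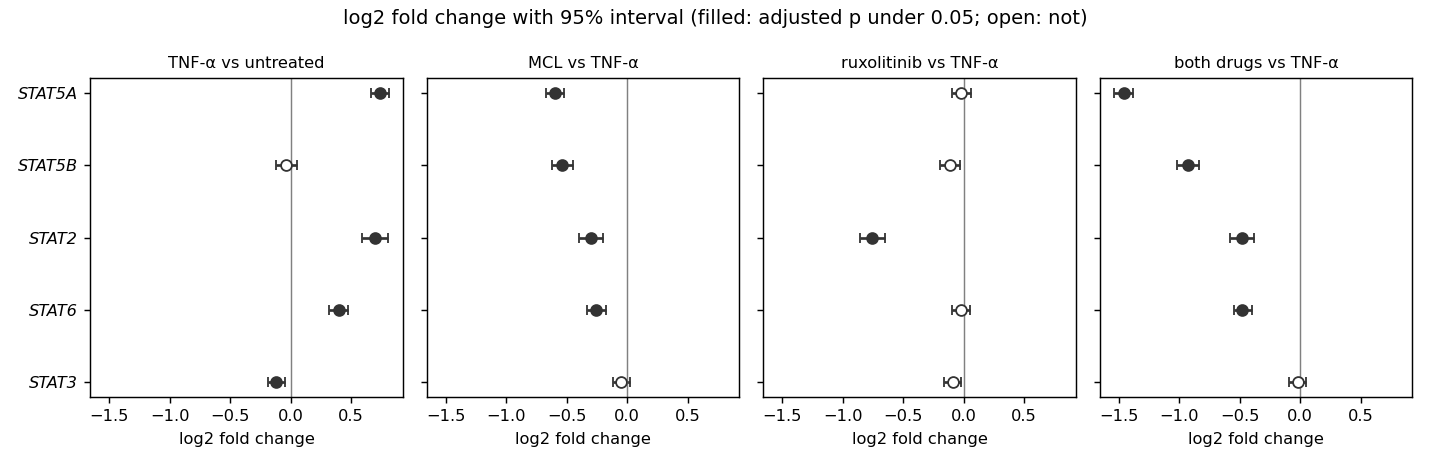
log2 fold change (horizontal axes) of the 5 tested STAT genes (vertical axis) in the 4 comparisons named above the panels, with 95% intervals; filled points passed an adjusted p of 0.05. STAT5A moves by 0.74 with TNF-α and by -1.46 with both drugs, STAT2 has its lowest value, -0.76, with ruxolitinib, and STAT3 passes in the first panel only.

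MCL, given after TNF-α, lowered 4 of the 5 tested STAT transcripts, with STAT5A and STAT5B falling most. In this comparison 26% of all tested genes passed, 15.1% lower and 10.9% higher. These were 2442 lower genes and 1757 higher ones, and with library totals the split was 2054 lower and 2381 higher. The members' median was -0.30, against -0.018 over all tested genes. All comparisons with TNF-α alone use the same 3 TNF-α libraries, so they are not independent of each other or of the comparison with untreated cells.

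STAT5A stood at 335, 344 and 359 CPM with MCL, all below the 515 to 534 CPM of TNF-α alone. It fell by 0.60 on the log2 scale (SE 0.04, adjusted p = 3.13e-17), which left 15.4% of the TNF-α gain over untreated cells. No group had MCL or ruxolitinib without TNF-α. For any member, a drug effect on the gain and one on the level without TNF-α therefore cannot be told apart. STAT5B, which passed no test with TNF-α, stood at 83.9, 81.9 and 84.3 CPM with MCL, against 119 to 123 CPM with TNF-α. It fell by 0.54 (SE 0.04, adjusted p = 8.74e-16) and thereby to 0.672-fold of the untreated level (adjusted p = 2.06e-17). MCL thus took STAT5B below, and STAT5A close to, the untreated state, with STAT5A still 0.14 higher on the log2 scale than in untreated cells (adjusted p = 0.00406).

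STAT2 held 66.9, 68.9 and 75.2 CPM with MCL, against 82.5, 90.9 and 86.4 CPM with TNF-α, a log2 change of -0.30 ± 0.05 (SE, adjusted p = 3.93e-06). Of its TNF-α gain 51% remained. STAT6 held 182, 177 and 189 CPM, against 221, 220 and 214 CPM, a log2 change of -0.26 ± 0.04 (adjusted p = 1.14e-07), and 31.6% of its gain remained. Against untreated cells STAT6 was 0.14 higher (adjusted p = 0.00322), a call that was lost without untreated replicate 3 (0.11, adjusted p = 0.0526, the highest of 0.00161 to 0.0526 over all alternatives). All 5 tested members passed against untreated cells, where 34.1% of all tested genes did, with STAT2, STAT5A and STAT6 higher after MCL and STAT3 and STAT5B lower. STAT3 held 249, 249 and 261 CPM with MCL, 1 of them inside the 255 to 273 CPM of TNF-α alone, and the 95% interval of its log2 difference ran from -0.12 to 0.02 (adjusted p = 0.369).

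Ruxolitinib lowered STAT2 and passed the test for no other member. In this comparison 15.7% of all tested genes passed, 10.6% lower and 5.15% higher. These were 1706 lower genes and 832 higher ones, and with library totals 1418 were lower and 1181 higher. STAT2 stood at 53.5, 51 and 49.4 CPM with ruxolitinib, against 82.5, 90.9 and 86.4 CPM with TNF-α, without overlap. The log2 fold change was -0.76 ± 0.05 (SE, adjusted p = 2.83e-18), which placed it at the 2.72 percentile of all tested genes. These libraries overlapped the untreated ones, with a log2 difference of -0.06 and a 95% interval of -0.17 to 0.05 (adjusted p = 0.456).

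STAT5A held 525, 531 and 494 CPM with ruxolitinib, against 534, 521 and 515 CPM with TNF-α alone, and STAT6 held 206, 223 and 215 CPM, against 221, 220 and 214 CPM. Both pairs of groups overlapped. Their log2 differences were -0.02 each, with intervals of -0.10 to 0.06 for STAT5A (adjusted p = 0.833) and -0.10 to 0.05 for STAT6 (adjusted p = 0.782), and with library totals each came to 0.00 with the opposite sign. STAT5B held 114, 111 and 111 CPM, just under the 119 to 123 CPM of TNF-α alone, with a log2 difference of -0.11 (95% interval -0.20 to -0.03, adjusted p = 0.0681). STAT3 held 245, 250 and 242 CPM, with a difference of -0.09 (95% interval -0.16 to -0.02, adjusted p = 0.0785). Against untreated cells 4 of 5 members passed, where 36.8% of all tested genes did. STAT5A was higher after ruxolitinib, by 0.72 (adjusted p = 1.5e-20), and STAT6 by 0.37 (adjusted p = 8.9e-13). STAT3 was lower after ruxolitinib, at -0.21 (adjusted p = 1.32e-06). STAT5B was lower as well, at -0.15 (adjusted p = 0.00344), a call that was lost without untreated replicate 2 (-0.11, adjusted p = 0.0539, the highest of 0.00194 to 0.0539 over all alternatives).

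Set against each other, MCL and ruxolitinib left different levels of 4 of the 5 tested members, where 27.5% of all tested genes differed. With MCL, STAT5A was lower than with ruxolitinib, at a log2 difference of -0.58 (95% interval -0.66 to -0.50, adjusted p = 8.18e-17). STAT5B was lower at -0.42 (adjusted p = 5.14e-12) and STAT6 at -0.24 (adjusted p = 8.06e-07). STAT2 was higher with MCL than with ruxolitinib, by 0.46 (95% interval 0.35 to 0.56, adjusted p = 3.38e-10). STAT3 differed by 0.04, with an interval of -0.03 to 0.11 (adjusted p = 0.416). Without the doses, whether the 2 drugs were matched in strength cannot be said.

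Both drugs together left less STAT5A and STAT5B than either did alone, at -0.86 and -0.39 against MCL and -1.44 and -0.82 against ruxolitinib. Of the 5 tested members 4 passed in each of these comparisons, where 41.6% (against MCL) and 51.7% (against ruxolitinib) of all tested genes did. In the comparison with TNF-α 4 of 5 members passed, all lower, where 54.8% of all tested genes passed, 29.3% lower and 25.5% higher. The split over all genes was 4730 lower and 4110 higher, and 3900 lower and 5091 higher with library totals. The members' median was -0.48, against -0.026 over all tested genes. STAT5A stood at 178, 195 and 199 CPM with both drugs, below every other library of the study, including the untreated ones at 300 to 335 CPM. Its log2 change against TNF-α was -1.46 ± 0.04 (SE, adjusted p = 2.37e-32), or 0.364-fold, and against untreated cells -0.72 (adjusted p = 2.03e-20). STAT5B stood at 66.5, 64.4 and 59.5 CPM, likewise the lowest of all libraries, at -0.93 ± 0.05 against TNF-α (adjusted p = 4.71e-27) and -0.97 against untreated cells (adjusted p = 5.16e-28).

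STAT6 held 158, 160 and 152 CPM with both drugs, against 221, 220 and 214 CPM with TNF-α, a change of -0.48 ± 0.04 (adjusted p = 4.32e-17). It overlapped the untreated libraries at 159 to 172 CPM, with a difference of -0.08 (adjusted p = 0.0674) that passed without untreated replicate 3 (-0.11, adjusted p = 0.0244, the lowest of 0.0244 to 0.407 over all alternatives). The other 4 tested members passed against untreated cells, where 57.4% of all tested genes did. STAT2 held 64.4, 60.3 and 61.9 CPM, against 82.5, 90.9 and 86.4 CPM with TNF-α, a change of -0.48 ± 0.05 (adjusted p = 3.64e-12). This was above the untreated level by 0.22 (adjusted p = 0.000388). STAT3 held 258, 257 and 259 CPM, inside the 255 to 273 CPM of TNF-α alone, and the 95% interval of its log2 difference was -0.09 to 0.05 (adjusted p = 0.712).

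The effect of MCL depended on whether ruxolitinib was present for 4 of the 5 tested members, where 25% of all tested genes showed such a dependence. The test subtracts the 2 single-drug log2 changes from the change seen with the combination. STAT5A changed by -1.44 with MCL in the presence of ruxolitinib and by -0.60 in its absence, a difference of -0.84 ± 0.06 (SE, adjusted p = 7.02e-17). Ruxolitinib, for which STAT5A passed no test without MCL, changed it by -0.86 in cells that had MCL (95% interval -0.94 to -0.78, adjusted p = 8.59e-23). Adding the single log2 changes would have given 342 CPM for STAT5A, and 190 CPM was observed.

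STAT5B and STAT6 moved in the direction of STAT5A by less. The differences between the 2 MCL effects were -0.28 ± 0.06 for STAT5B (adjusted p = 0.000383) and -0.20 ± 0.05 for STAT6 (adjusted p = 0.00393). STAT5B came to 63.5 CPM where the sum gave 77.2 CPM, and STAT6 to 157 CPM where the sum gave 180 CPM.

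STAT2 showed the opposite sign. MCL raised it by 0.28 on top of ruxolitinib (adjusted p = 1.59e-05) and changed it by -0.30 without ruxolitinib, a difference of 0.58 ± 0.07 (adjusted p = 6.67e-09). It came to 62.2 CPM with both drugs where the sum of single changes gave 41.6 CPM. Compared with MCL alone, both drugs gave less STAT2, at -0.18 (adjusted p = 0.00434), a call that was lost without MCL replicate 3 (-0.13, adjusted p = 0.0677, the highest of 0.0027 to 0.0677 over all alternatives). For STAT3 the difference was 0.12 with an interval of 0.02 to 0.22 (adjusted p = 0.0741), and it passed with library totals (0.14, adjusted p = 0.0288, the lowest of 0.0288 to 0.317 over all alternatives). Its level with both drugs was 0.07 above that with ruxolitinib (adjusted p = 0.0804), which passed with library totals (0.13, adjusted p = 0.00159), with DESeq2 size factors (0.08, adjusted p = 0.0478), with DESeq2 (0.08, adjusted p = 0.0476) and without ruxolitinib replicate 2 (0.10, adjusted p = 0.0356), over a range of 0.00159 to 0.218.

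**Figure D3:**
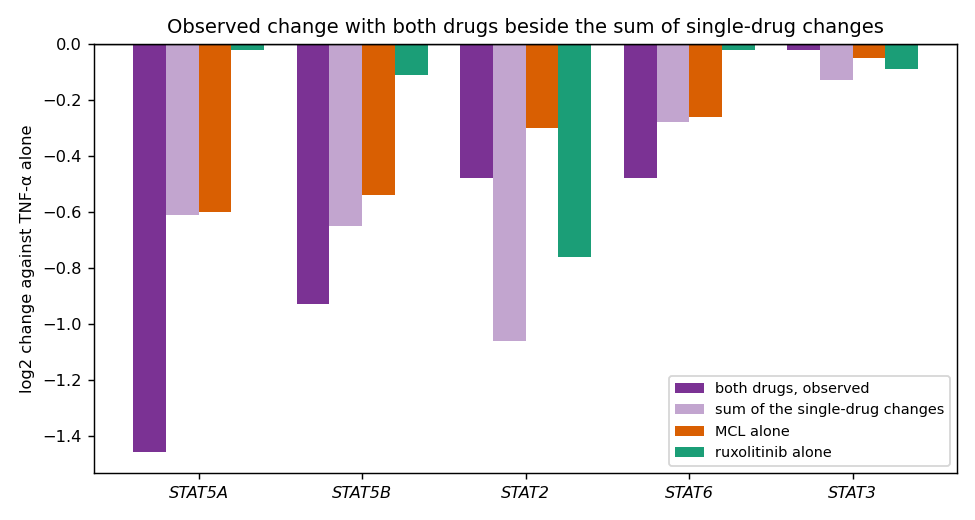
log2 change against TNF-α alone (vertical axis) of each tested STAT gene with both drugs, as the sum of the single-drug changes, with MCL and with ruxolitinib; bars are point estimates without error bars. For STAT5A both drugs reach -1.46 where the sum is -0.61, and for STAT2 they reach -0.48 where the sum is -1.06.

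Each gene's group means were set in order. For STAT5A they ran upward through both drugs, untreated, MCL, ruxolitinib and TNF-α, and the last 2 neighbours did not differ beyond their spread. STAT5B ran through both drugs, MCL, ruxolitinib, TNF-α and untreated, and no difference passed between ruxolitinib and TNF-α or between TNF-α and untreated. STAT6 kept the order of STAT5A, with no call between both drugs and untreated or between ruxolitinib and TNF-α. STAT2 ran through ruxolitinib, untreated, both drugs, MCL and TNF-α, and the lowest pair did not differ beyond the spread. STAT3 ran through ruxolitinib, MCL, both drugs, TNF-α and untreated, with a call between the last 2 alone. Over the 15 libraries, which form 5 groups of 3 and share those groups, STAT5A and STAT6 had a Pearson r of 0.937, STAT5A and STAT5B 0.776, and STAT5A and STAT2 0.196.

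The pool of STAT transcripts was smallest with both drugs and largest with TNF-α. Summed per length over the 6 genes it came to 104 ± 1.07 RPKM with both drugs, 138 ± 4.33 RPKM with MCL, 173 ± 4.35 RPKM with ruxolitinib, 183 ± 0.618 RPKM with TNF-α and 137 ± 5.26 RPKM in untreated cells (SD, n = 3 each). STAT5A made up 31.8% ± 1.55 of the pool with both drugs, 43.5% ± 0.417 with MCL, 51.9% ± 0.782 with ruxolitinib, 49.6% ± 0.763 with TNF-α and 39.7% ± 0.922 in untreated cells. STAT3, whose own level moved little, accordingly made up 28.2% ± 0.354 of it with both drugs and 16.2% ± 0.69 with TNF-α.

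**Figure D4:**
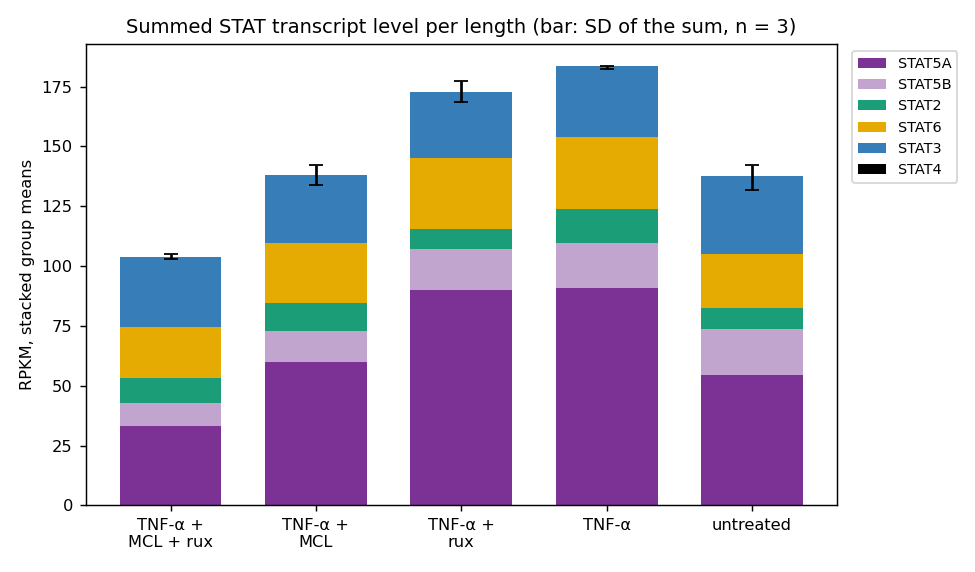
Mean RPKM of the 6 STAT genes stacked (vertical axis, RPKM) for the 5 groups (horizontal axis), with the SD of the sum over 3 libraries as the error bar. The sum is 104 RPKM with both drugs and 183 RPKM with TNF-α, and the STAT5A layer accounts for 33.1 RPKM of the first and 90.9 RPKM of the second.

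STAT5A and STAT5B are closely related genes, and their ratio within a library does not depend on scaling. The ratio of STAT5A to STAT5B counts was 2.68, 3.02 and 3.34 with both drugs, 3.99, 4.19 and 4.26 with MCL, 4.60, 4.80 and 4.44 with ruxolitinib, 4.49, 4.25 and 4.25 with TNF-α, and 2.51, 2.58 and 2.50 in untreated cells. All TNF-α libraries lay above all untreated ones, and the libraries with both drugs lay between the TNF-α and the untreated ones. The log2 ratio with TNF-α differed from that in untreated cells by 0.78, and the one with both drugs from that with TNF-α by -0.53. Each had an exact two-sided permutation p of 0.1, the smallest that 3 against 3 libraries can give, and 0.2 after adjustment over the 4 comparisons. With MCL the log2 ratio differed from that with TNF-α by -0.06 (exact permutation p = 0.3, adjusted 0.3) and with ruxolitinib by 0.09 (exact permutation p = 0.2, adjusted 0.267).

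STAT5A and STAT5B share part of their sequence. Of all 50-base stretches in the annotated STAT5A transcripts 8.61% occur in STAT5B transcripts, and of those of STAT5B 7.81% occur in STAT5A. Of 150-base stretches the shares are 4.58% and 4.25%, and the other 4 members share none of either length with any member. The sources used here do not give the read length or say how reads that match both were counted. STAT6 shares 69 exon bases with NAB2 and 59 with LRP1, both on the opposite strand, which are 0.945% and 0.808% of its exon bases. NAB2 itself changed by -1.1 with both drugs (adjusted p = 8.77e-21), and whether counting used strand is likewise not stated.

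**Figure D5:**
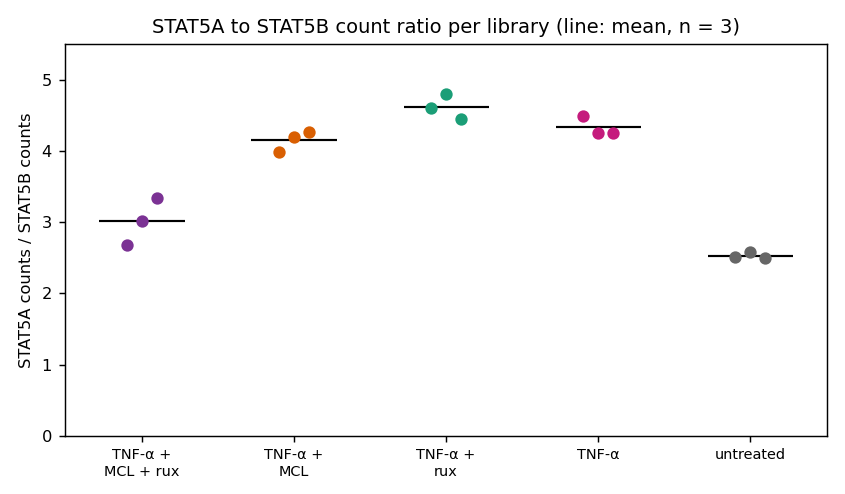
Ratio of STAT5A counts to STAT5B counts in each library (points; vertical axis, no unit) of the 5 groups (horizontal axis), with the mean of 3 libraries as a line. The 3 libraries with both drugs lie between 2.68 and 3.34, under the 4.25 to 4.49 of TNF-α alone and above the 2.50 to 2.58 of untreated cells.

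The genes around the members did not all move with them. CAVIN1, the protein-coding neighbour beyond STAT3, changed by -0.33 with MCL (adjusted p = 1.29e-13) and by -0.78 with both drugs (adjusted p = 2.5e-31), although STAT3 between it and STAT5A passed neither comparison. GHDC, 4636 bases beyond STAT5B, changed by -0.22 with both drugs (adjusted p = 0.00616) and by -0.05 with MCL (adjusted p = 0.62). Next to STAT2, TIMELESS was higher by 0.13 with ruxolitinib (adjusted p = 0.0132), the treatment in which STAT2 was lowest, and IL23A, at about 1 CPM, passed no test. Next to STAT6, NEMP1 was higher by 0.41 with both drugs (adjusted p = 3.57e-13), where STAT6 was lower.

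Among 9924 protein-coding genes with at least 5 CPM, those most like each member over the 15 libraries were named by the Pearson r of log2 CPM. For STAT5A these were HNRNPA0 (0.997), CHST2 (0.996) and IL10RA (0.993), and for STAT6 they were AGRN (0.987), CD82 (0.98) and TMCC2 (0.98). For STAT5B, PTK2B, PLCB2 and AKNA each reached 0.992. STAT2 was matched less closely, with ZNFX1 (0.945), SP100 (0.913) and TRIM22 (0.91) highest, and STAT3 had FLT4 (0.916), SLC20A2 (0.902) and LMO2 (0.899). With only 5 groups behind the 15 libraries, high values of r are common, and they are given as a description.

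The kinases and receptors upstream of the STATs changed with TNF-α as well. All 4 JAK kinase genes rose, where 14.1% of all tested genes did, and all 4 fell with MCL, where 15.1% did. TYK2, the kinase of the interferon and interleukin-12 receptors, changed most, by 1.1 ± 0.04 with TNF-α (SE, adjusted p = 2.69e-32) and by -0.51 ± 0.04 with MCL (adjusted p = 7.57e-17). Ruxolitinib, which blocks the JAK proteins, raised JAK2 by 0.20 ± 0.06 (adjusted p = 0.0224) and passed for no other JAK gene, and with both drugs 3 of 4 fell, where 29.3% of all tested genes did. Of 21 tested cytokine receptor genes in a list of 23, 12 rose and 1 fell with TNF-α, 3 rose and 6 fell with MCL, 2 rose and 0 fell with ruxolitinib, and 5 rose and 7 fell with both drugs. Over all tested genes 14.1% rose and 12.5% fell with TNF-α, 10.9% rose and 15.1% fell with MCL, 5.15% rose and 10.6% fell with ruxolitinib, and 25.5% rose and 29.3% fell with both drugs, so the receptor counts with both drugs were near the share of all genes. CSF2RB, the signalling chain shared by the interleukin-3 and GM-CSF receptors that feed STAT5, rose by 0.94 ± 0.04 with TNF-α (adjusted p = 1.08e-29) and changed by -1.01 ± 0.04 with both drugs (adjusted p = 9.41e-32).

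STAT partners and inhibitors were mixed. IRF9, which binds DNA together with STAT2, rose by 0.97 ± 0.13 with TNF-α (adjusted p = 8.78e-09) and changed by -1.26 ± 0.14 with ruxolitinib (adjusted p = 3.05e-11) and by -0.07 with MCL (adjusted p = 0.732). Of 8 partner and coactivator genes, 3 rose and 0 fell with TNF-α, 2 rose and 0 fell with MCL, 2 rose and 3 fell with ruxolitinib, and 3 rose and 2 fell with both drugs, EP300 and CREBBP each by 0.64 in the upward direction. Of 16 inhibitor genes, 4 rose and 3 fell with TNF-α, 3 rose and 4 fell with MCL, 2 rose and 3 fell with ruxolitinib, and 4 rose and 7 fell with both drugs. These small counts stand beside 14.1% rising and 12.5% falling over all tested genes with TNF-α, 10.9% and 15.1% with MCL, 5.15% and 10.6% with ruxolitinib, and 25.5% and 29.3% with both drugs, and the 4 inhibitors that rose with both drugs are near that share. SH2B3, an adaptor that restrains JAK signalling, changed by -1.53 ± 0.04 with both drugs (adjusted p = 3.46e-42), and CISH, a STAT5-induced suppressor, by -1.40 ± 0.11 (adjusted p = 1.07e-17).

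Transcripts known as targets of the members were counted beside them. Of 28 tested ISGF3 targets, which STAT2 serves, 26 rose and 0 fell with TNF-α, where 14.1% of all tested genes rose. With MCL 25 fell and 0 rose, where 15.1% of all tested genes fell. With ruxolitinib and with both drugs 27 fell and 0 rose, where 10.6% and 29.3% of all tested genes fell. IFIT1, an interferon-induced antiviral RNA-binding protein, rose by 1.5 ± 0.06 with TNF-α (adjusted p = 3.38e-30) and changed by -1.16 ± 0.06 with MCL (adjusted p = 1.23e-24), -2.94 ± 0.07 with ruxolitinib (adjusted p = 6.56e-41) and -3.48 ± 0.07 with both drugs (adjusted p = 1.88e-45). With both drugs the list median was -1.68, lower than the -1.32 with ruxolitinib, while STAT2 itself was higher with both drugs than with ruxolitinib. In the direct comparison of both drugs with ruxolitinib 18 of the 28 targets fell and 0 rose, where 26.8% of all tested genes fell.

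Of 19 STAT5 targets, 5 rose and 7 fell with TNF-α, 3 rose and 12 fell with MCL, 0 rose and 11 fell with ruxolitinib, and 4 rose and 14 fell with both drugs, with medians of -0.03, -0.27, -0.38 and -1.30. Over all tested genes 14.1% rose and 12.5% fell with TNF-α, 10.9% and 15.1% with MCL, 5.15% and 10.6% with ruxolitinib, and 25.5% and 29.3% with both drugs, and the median change of all tested genes lay between -0.03 and 0 in each. GFI1B, a regulator of red cell and platelet precursors, changed by -0.82 ± 0.04 with ruxolitinib (adjusted p = 2.12e-24), in cells whose STAT5A transcript did not pass the test, and by -1.71 ± 0.04 with both drugs (adjusted p = 3.51e-40). CCND1, the cyclin shared with the STAT3 list, changed by -0.73 ± 0.04 with MCL (adjusted p = 2.3e-23), by -1.21 ± 0.04 with ruxolitinib (adjusted p = 3.6e-33) and by -2.94 ± 0.05 with both drugs (adjusted p = 1.19e-51). PIM1, also on both lists, was among the 3 targets that rose with MCL (0.38 ± 0.06, adjusted p = 5.15e-07). With both drugs it was among the 4 that rose (0.88 ± 0.06, adjusted p = 4.47e-21), and with ruxolitinib it changed by -0.39 ± 0.06 (adjusted p = 2.48e-06). The 4 STAT5 targets that rose with both drugs were near the share of all tested genes. The counts do not separate targets that a STAT raises from those it lowers.

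Of 18 STAT3 targets, 11 rose and 2 fell with TNF-α, 2 rose and 8 fell with MCL and with ruxolitinib alike, and 4 rose and 11 fell with both drugs. The shares of all tested genes that rose and fell were 14.1% and 12.5% with TNF-α, 10.9% and 15.1% with MCL, 5.15% and 10.6% with ruxolitinib, and 25.5% and 29.3% with both drugs, for this list and the STAT6 and STAT4 lists after it. The 2 STAT3 targets that rose with MCL, the 2 that fell with TNF-α and the 4 that rose with both drugs were near those shares. In the STAT6 list the same held for targets that fell with TNF-α, rose with MCL, fell with ruxolitinib or rose with both drugs. STAT3 itself passed none of the 3 drug comparisons with TNF-α. BCL3, which encodes an NF-kB cofactor, rose by 3.26 ± 0.07 with TNF-α (adjusted p = 1.01e-43). JUNB, a component of AP-1, rose by 1.75 ± 0.05 (adjusted p = 2.81e-40). With MCL BCL3 and JUNB changed by -0.61 and -0.77, and with both drugs by -2.09 and -1.87. Neither passed with ruxolitinib, at 0.11 for BCL3 (edgeR, adjusted p = 0.182) and 0.05 for JUNB (adjusted p = 0.453). Of the 15 STAT6 targets 8 were tested, of which 4 rose and 1 fell with TNF-α, 1 rose and 2 fell with MCL, 0 rose and 1 fell with ruxolitinib, and 2 rose and 5 fell with both drugs. IL4R, the receptor chain upstream of STAT6, rose by 1.51 ± 0.17 with TNF-α (adjusted p = 6.29e-11) and changed by -2.30 ± 0.19 with both drugs (adjusted p = 9.19e-17). Of 9 STAT4 targets 6 were tested although STAT4 was close to 0. With TNF-α 4 rose, with MCL 5 fell, with ruxolitinib 1 rose and 2 fell, and with both drugs 1 rose and 5 fell. Among them IL18R1 rose by 4.45 ± 0.08 with TNF-α (adjusted p = 1.46e-50). Many of these targets answer to other factors too, and what share of their change went through a STAT was not tested.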

How the data were processed

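The deposited table gives unnormalized counts per gene, made by the authors. HISAT2 2.0.5, featureCounts 1.5.0-p3 and DESeq2 1.16.1 are named in the submitters' processing notes without a role, beside the builds hg38 and mm10. The sources used here do not give strand use, how reads with several matches were treated, or whether replicates were separate cultures. So p-values reflect the spread of these libraries alone, which may be technical. Table columns called control were read as the untreated group.

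Levels were computed as CPM with TMM factors, and as RPKM with the exon lengths of the deposited table. A low-count filter (filterByExpr, minimum count 10) kept 16146 of 58735 genes. All 15 libraries entered 1 robust quasi-likelihood model in edgeR 4.0.16 (R 4.3.3), with 10 residual degrees of freedom and a biological coefficient of variation of 0.04. P-values were adjusted by Benjamini-Hochberg over the 16146 genes. Standard errors are the size of the log2 change over the root of the F value. The STAT5A to STAT5B ratio was tested by exact permutation over libraries. Of these methods only the edgeR test was run on simulated counts, for TNF-α against untreated cells and with the same dispersion for every gene. The drug comparisons, the difference between MCL effects and the ratio test were not simulated. No pair of libraries in a group agreed within sampling noise, so none was treated as a copy.

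The members, gene lists and tests were chosen with earlier results of these data known, and some gene lists share members. Genes were named by rule: the members, the 3 genes of most similar pattern for each, up to 3 called genes of each list per comparison with the smallest p, and overlapping or flanking genes. Alternatives were DESeq2 size factors, library totals, no filter, DESeq2 1.42.0, only the groups compared, the replicate number as a block, and each library left out. Sequences are from RefSeq (GRCh38.p14). Plots were drawn with matplotlib 3.10.9 in Python 3.11.15.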

Additional observations from a re-analysis of the deposited data

Results flagged for a closer look

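For 4 STAT genes the effect of MCL in cells with ruxolitinib differed from its effect in cells without it, by a test of the difference itself (edgeR, adjusted over all tested genes). The difference on the log2 scale was -0.84 for STAT5A (adjusted p = 7.02e-17), where MCL changed the level by -1.44 with ruxolitinib and by -0.60 without it, lower in all 3 libraries each time. For STAT2 it was 0.58 (adjusted p = 6.67e-09), with changes of 0.28 and -0.30. For STAT5B it was -0.28 (adjusted p = 0.000383), with changes of -0.82 and -0.54, and for STAT6 it was -0.20 (adjusted p = 0.00393), with changes of -0.45 and -0.26. Of all tested genes 25% showed such a difference.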

How the results depend on the processing

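The number of STAT genes that passed stayed within 1 gene of the reported one under all 138 alternatives in the 11 comparisons, moving only through the 3 lost and 6 gained calls counted next, and the STAT5A to STAT5B log2 ratio kept its direction in 28 of 28, where no alternative could reach a p under 0.1. Of 690 values of single genes under alternatives, 671 kept direction and call, 3 lost the call, 6 gained one and 10 changed sign. All sign changes were in differences close to 0. For ruxolitinib against TNF-α, STAT5A gave 0.00 with library totals and without TNF-α replicate 1 and 0.02 without ruxolitinib replicate 3, and -0.03 to 0.02 over all single libraries left out. STAT6 gave 0.00 with library totals and 0.01 without ruxolitinib replicate 1, and -0.03 to 0.01 over all libraries left out. For both drugs against TNF-α, STAT3 gave 0.01 with DESeq2 size factors and with DESeq2, 0.06 with library totals, 0.00 without the filter and 0.02 without TNF-α replicate 3, and -0.03 to 0.02 over all libraries left out. The causes were not tested. The calls lost and gained stand beside their genes above. With 1 library left out, the difference between MCL effects for STAT5A stayed within the range of all its alternatives, -0.88 to -0.80.

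Replicate numbers did not pair the libraries: over 30 pairs with the same number, deviations from the group means correlated between -0.0483 and 0.0483. With the replicate number as a block, 4, 4, 1 and 4 STAT genes passed for TNF-α against untreated and for MCL, ruxolitinib and both drugs against TNF-α, and the STAT5A log2 changes were 0.74, -0.60, -0.02 and -1.46. Over all tested genes the block moved the calls for TNF-α against untreated to 4326, beside 4292 without it. STAT4, at 0 to 3 counts, is under what this depth can compare, and 3 libraries a group cannot reach an exact permutation p under 0.1.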
